A study of Homo sapiens with 8 samples.

Results

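The genes described here are 31 markers of the mesenchymal state and of the epithelial-mesenchymal transition (EMT): EMT transcription factors, mesenchymal cytoskeletal and adhesion genes, and secreted matrix genes other than collagens, laminins and integrins. They were chosen by name, and all 31 were among the 18656 gene symbols of the deposited table. Expression was measured by total RNA sequencing in SW480, an established human colorectal cancer cell line. There were 8 libraries: 2 from cells with a negative-control siRNA, carrying the 0 h label, and pairs from cells 24, 48 and 72 h into treatment with a TCF7L2 siRNA, which was delivered with a lipid reagent per the labels' protocols. TCF7L2 encodes a DNA-binding partner of beta-catenin in the Wnt pathway. As all control libraries used here are labelled 0 h, the effects of silencing and of elapsed time cannot be told apart, and all 3 comparisons with the control use the same 2 libraries.

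In EMT, epithelial cells loosen their junctions and take on a spindle-shaped, motile form. Transcription factors of the SNAIL, ZEB and TWIST families repress epithelial genes by binding E-boxes. Intermediate filaments change from keratins to vimentin, E-cadherin gives way to N-cadherin, and contractile and matrix proteins are induced, often under TGF-beta. In colorectal tumours most matrix genes of this kind are made by stromal fibroblasts.

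Levels are given as TPM (a share of transcripts normalised for transcript length, so that levels of different genes can be compared) divided by a factor for each library that brings its median gene to the mean profile. The factors ran from 0.804 in the second 72 h library to 1.07 in the second 0 h library. The listed TPM summed to 352456 in that 72 h library and to 448107 to 485602 in the other 7. TPM keeps no read depth, so counting error is unknown and the spread of 2 libraries is the only error available. The labels do not say that these were separate cultures (their protocol speaks of replicates of the treatment, of which 2 per time are analysed here). So p-values measure the spread between samples, which may be technical. In RNA from whole cultures, a change in the number of cells making a transcript and a change in its amount per cell cannot be told apart. Of the 31 members 21 reached a deposited TPM of 1 in 2 or more libraries. These were tested with limma among 11894 genes. Changes are log2 fold changes of scaled TPM + 1, ± standard error (SE), and understate the change of low genes. Adjusted p-values are limma's, adjusted by Benjamini-Hochberg over all genes tested. TCF7L2 itself measured 6.48 and 6.99 in the control libraries, 5.81 and 5.11 after 24 h, 4.67 and 3.83 after 48 h, and 3.93 and 4.39 after 72 h. Its change was -0.26 ± 0.11 (adjusted p = 0.288) at 24 h, -0.56 ± 0.11 (adjusted p = 0.00725) at 48 h and -0.58 ± 0.11 (adjusted p = 0.00197) at 72 h. Its 48 h call did not hold when the second 0 h library was left out (adjusted p = 0.0532) or, likewise, the second 48 h library (0.0573).

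Most of the tested mesenchymal genes were higher at 72 h, and those called higher at 48 h were matrix genes and inhibitors of matrix proteases. At 24 h against 0 h, 0 of the 21 tested members were called at an adjusted p under 0.05, where 1.08% of all tested genes were called. By limma 5 members had an unadjusted p under 0.05 at that time (VIM, TAGLN, MYL9 and TIMP1 lower, TIMP3 higher). How many of all genes reached that unadjusted threshold was not counted, so the 5 are a description. The smallest adjusted p of a member was 0.147, for TIMP1. At 48 h 6 members were called (28.6%), all higher (SPARC, TGFBI, POSTN, LUM, TIMP1 and TIMP3). That share is near the 23.5% of all genes called in either direction. Of all genes 12% were called higher. At 72 h 18 were called, 16 higher and 2 lower, against 52.0% of all genes (25.8% higher and 26.2% lower). The median change of the 21 was -0.09 at 24 h, 0.21 at 48 h and 0.59 at 72 h. That of all genes tested lay within 0.01 of 0 each time, as the scaling itself sets it near 0. On the TPM as deposited the medians of the 21 were -0.18, 0.20 and 0.43, against -0.09, -0.02 and -0.19 for all genes. POSTN passed the expression filter only through its 48 and 72 h libraries, so its place among the called genes was fixed by that filter. On the TPM as deposited, where the median gene fell by 0.19 at 72 h, 0 members were higher and 1 lower at 24 h. By 48 h 4 were higher and 1 lower, and by 72 h 11 were higher and 3 lower. Of all 11894 genes tested on that scale 25 were higher and 30 lower at 24 h. The counts over all genes were 548 higher and 374 lower at 48 h, and 1253 higher and 3715 lower at 72 h. The members that lost their 72 h call on that scale were SNAI1, CALD1, TPM2, MYL9 and TIMP3, and TAGLN gained one.

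**Figure D1:**
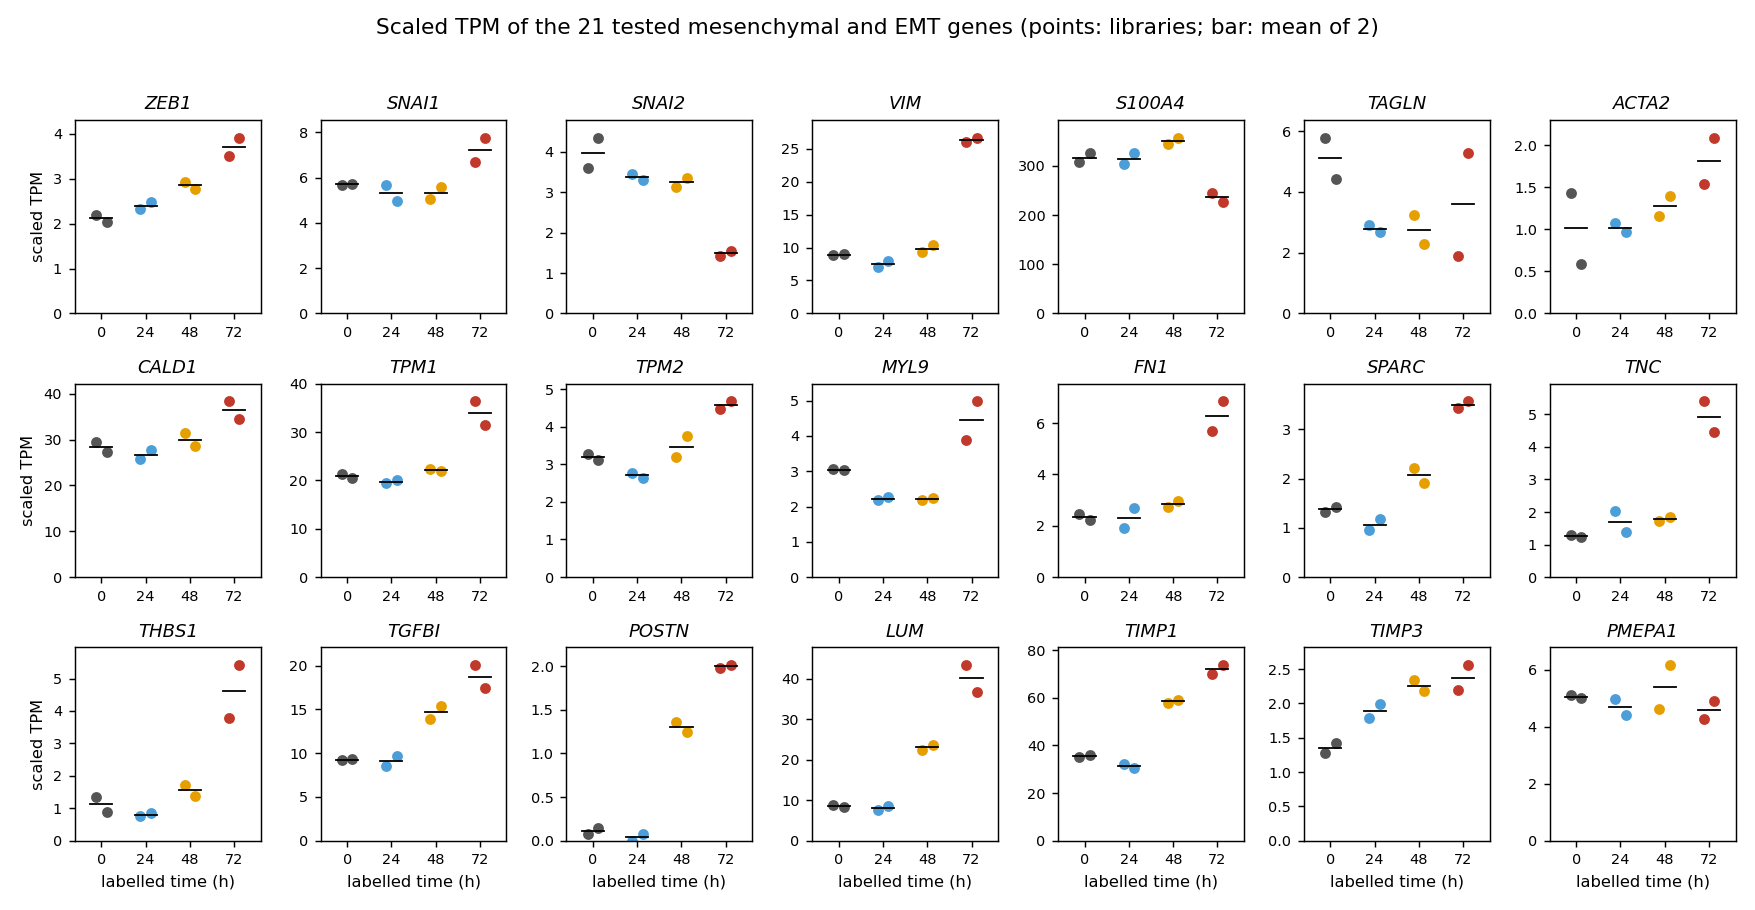
Scaled TPM of each of the 21 tested members (vertical axes, each from 0) against the labelled time in hours, with 1 point per library and a bar at the mean of 2 libraries; 0 h is the control siRNA. VIM, FN1, TNC and THBS1 stand apart from all earlier libraries at 72 h, LUM, TIMP1, TGFBI and POSTN are already higher at 48 h, and the 2 libraries of TAGLN at 72 h lie at 1.90 and 5.28.

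Time steps within the silenced cells leave the control out of the difference, though its libraries enter the scaling and the spread used in the test. Between 24 and 48 h 6 members were called, all higher (VIM, SPARC, TGFBI, POSTN, LUM and TIMP1), against 14.0% of all genes called. Between 48 and 72 h 16 were called, 14 higher and 2 lower, against 39.9% of all genes. On the TPM as deposited this count was 6 higher and 2 lower, against 590 and 2621 of all 11894 genes tested. The rise in the later step was 1.34 ± 0.09 (adjusted p = 9.50e-06) for VIM, 1.12 ± 0.17 (adjusted p = 0.000856) for THBS1 and 1.08 ± 0.14 (adjusted p = 0.000374) for TNC. As ratios of means the order of these genes differed, with 2.97 for THBS1, 2.75 for TNC and 2.67 for VIM. TIMP3, which had risen by 48 h, did not pass (0.05 ± 0.11, adjusted p = 0.758). Leaving out 1 library at a time, the 48 to 72 h calls of 11 of the 16 held throughout. Those of SNAI1 (lost without the first 48 h or the second 72 h library, adjusted p = 0.0897 and 0.0976), CALD1 (second 48 h or first 72 h, 0.131 and 0.109) and TGFBI (first 48 h or first 72 h, 0.122 and 0.119) did not hold. TPM2 was lost without the first 48 h library (0.177) or either 72 h library (0.0647 and 0.120), and POSTN without any 1 of the 4 libraries of those times (from 0.0680 to 0.125). In the earlier step VIM was lost without the first 24 h or second 48 h library (adjusted p = 0.169 and 0.169), and SPARC without the first 24 h or first 48 h library (0.0914 and 0.0784).

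**Figure D2:**
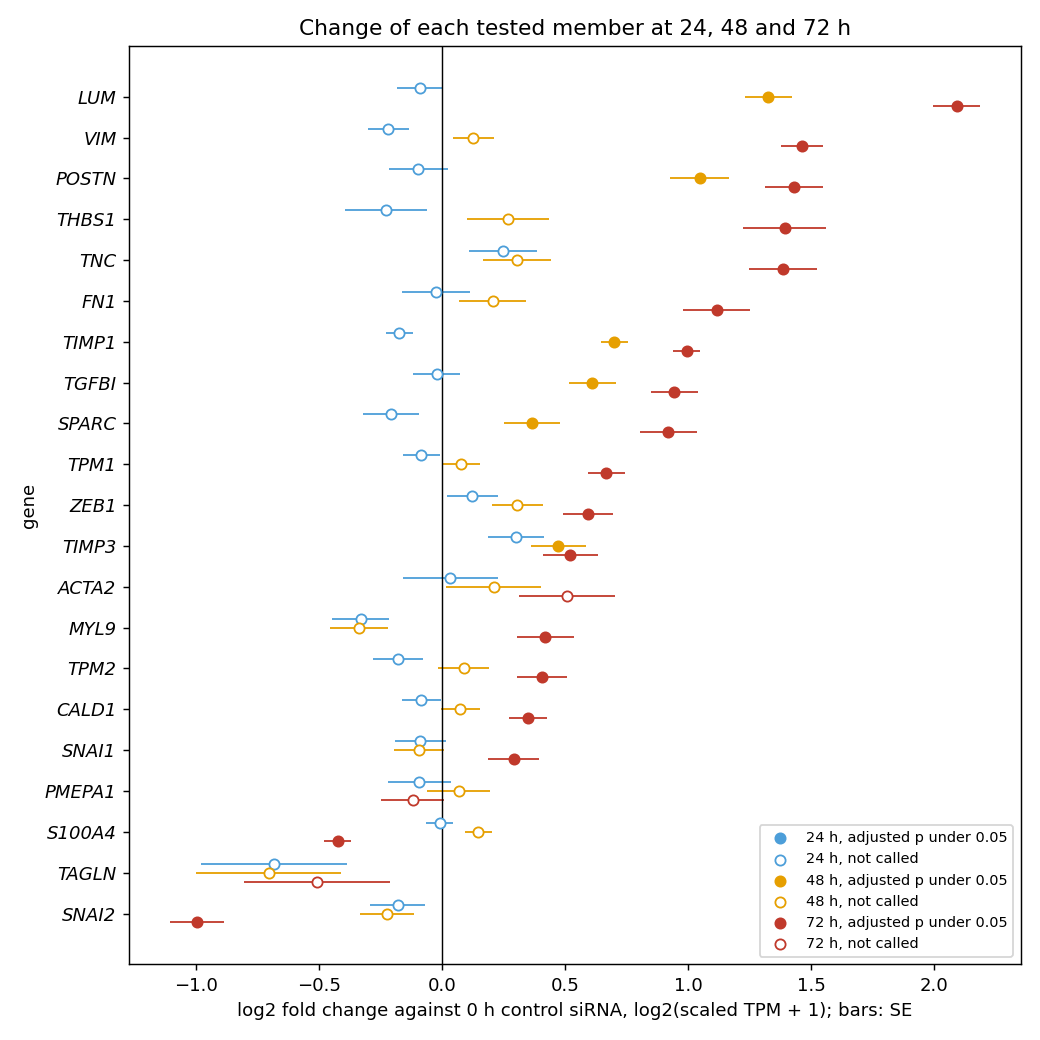
Log2 fold change of each tested member against the 0 h control (horizontal axis, log2 of scaled TPM + 1; bars are SE) at 24, 48 and 72 h, with genes ordered by the 72 h value. Filled points passed an adjusted p of 0.05: none at 24 h, 6 at 48 h and 18 at 72 h, from -1.0 for SNAI2 to 2.09 for LUM.

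Of the 6 EMT transcription factors only ZEB1, SNAI1 and SNAI2 were expressed above the filter, and at 72 h ZEB1 and SNAI1 were higher and SNAI2 lower. SNAI2 (Slug), a SNAIL-family repressor, measured 3.59 and 4.35 in the control libraries, 3.45 and 3.29 after 24 h, 3.13 and 3.36 after 48 h, and 1.42 and 1.55 after 72 h. Both 72 h libraries lay below all the others. SNAI2 changed by -1.0 ± 0.11 (adjusted p = 7.42e-05) at 72 h, to 0.374 times its control mean. Its earlier values were -0.18 ± 0.11 (adjusted p = 0.461) at 24 h and -0.22 ± 0.11 (adjusted p = 0.175) at 48 h. ZEB1, a zinc-finger E-box repressor of cadherin 1, measured 2.20 and 2.04 in the control libraries, 2.32 and 2.48 after 24 h, 2.94 and 2.77 after 48 h, and 3.50 and 3.92 after 72 h. After scaling the ZEB1 groups did not overlap at any step. On the TPM as deposited those at 0 h (2.33 and 2.18) and 24 h (2.32 and 2.45) did overlap. The scaled change of ZEB1, 0.59 ± 0.10 (adjusted p = 0.00109), passed at 72 h, while 0.31 ± 0.10 (adjusted p = 0.0606) at 48 h did not. SNAI1 (Snail), the other SNAIL-family repressor, measured 5.69 and 5.74 in the control libraries, 5.66 and 4.98 after 24 h, 5.03 and 5.56 after 48 h, and 6.70 and 7.77 after 72 h. All 4 libraries at 24 and 48 h lay below the control ones and both at 72 h above them, and its 72 h change was 0.29 ± 0.10 (adjusted p = 0.0388). That call of SNAI1 was lost with either control library left out (adjusted p = 0.124 and 0.114) or the second 72 h library (0.201). Without scaling the 72 h change of SNAI1 was 0.10 ± 0.16, adjusted p = 0.651. Its call was also lost with quantile normalization (adjusted p = 0.0921), with no filter (0.0760), with only the compared groups in the fit (0.0557) and with a block for replicate number (0.0502). ZEB2, TWIST1 and TWIST2 stayed below 0.3 scaled TPM in every library.

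VIM, which encodes the intermediate filament protein vimentin, had the largest rise of the cytoskeletal genes above the filter, both as log2 change and as ratio of means. It measured 8.85 and 8.97 in the control libraries, 7.09 and 7.98 after 24 h, 9.26 and 10.4 after 48 h, and 26.0 and 26.7 after 72 h. The 24 h libraries of VIM lay below the control ones and the 72 h libraries far above every other. The change was -0.22 ± 0.09 (adjusted p = 0.237) at 24 h and 0.13 ± 0.09 (adjusted p = 0.305) at 48 h. At 72 h it was 1.46 ± 0.09 (adjusted p = 1.32e-06), or 2.95 times the control mean. S100A4, a calcium-binding protein also called fibroblast-specific protein, was the most abundant member in every library and moved the other way. It measured 308 and 326 in the control libraries, 304 and 325 after 24 h, 345 and 357 after 48 h, and 245 and 227 after 72 h. Both 48 h libraries of S100A4 were the highest and both 72 h libraries the lowest. At 72 h S100A4 changed by -0.42 ± 0.06 (adjusted p = 0.000189), to 0.745 times the control mean, against 0.15 ± 0.06 (adjusted p = 0.0814) at 48 h. Without scaling the 72 h value of S100A4 was -0.64 ± 0.17, adjusted p = 0.000750. The share of S100A4 in the summed level of all 31 members went from 66.6 and 68.7% at 0 h to 46.1 and 44.4% at 72 h.

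Of the actin-binding and contractile genes TPM1, TPM2, CALD1 and MYL9 were called higher at 72 h. TPM1, an alpha tropomyosin gene, measured 21.3 and 20.6 in the control libraries, 19.4 and 20.0 after 24 h, 22.4 and 21.9 after 48 h, and 36.4 and 31.5 after 72 h. All 6 libraries up to 48 h lay between 19.4 and 22.4 and both at 72 h above 31, a rise of 0.67 ± 0.07 (adjusted p = 7.70e-05). TPM2, the beta tropomyosin gene, measured 3.28 and 3.13 in the control libraries, 2.78 and 2.64 after 24 h, 3.20 and 3.74 after 48 h, and 4.47 and 4.67 after 72 h. Only the 48 h libraries of TPM2 overlapped the control ones, and the 72 h change was 0.41 ± 0.10 (adjusted p = 0.00803). CALD1, the actin- and tropomyosin-binding caldesmon, measured 29.5 and 27.3 in the control libraries, 25.7 and 27.7 after 24 h, 31.4 and 28.5 after 48 h, and 38.3 and 34.5 after 72 h. The 72 h libraries of CALD1 lay above all others, with a change of 0.35 ± 0.08 (adjusted p = 0.00442) at 72 h. MYL9, a regulatory light chain of myosin II, measured 3.06 and 3.04 in the control libraries, 2.18 and 2.27 after 24 h, 2.18 and 2.24 after 48 h, and 3.90 and 4.98 after 72 h. It was lower than the control in both libraries at 24 and 48 h, which did not pass the test (-0.33 ± 0.12, adjusted p = 0.192, and -0.34 ± 0.12, adjusted p = 0.0639), and higher in both at 72 h (0.42 ± 0.12, adjusted p = 0.0132). The 72 h call of MYL9 was lost with either control library left out (adjusted p = 0.0548 and 0.0580) or the second 72 h library (0.0942, with a change of 0.28). On the TPM as deposited the 72 h values of CALD1 (0.14 ± 0.16, adjusted p = 0.516), TPM2 (0.23 ± 0.17, adjusted p = 0.262) and MYL9 (0.24 ± 0.17, adjusted p = 0.243) did not pass, while TPM1 did (0.46 ± 0.16, adjusted p = 0.0139). With quantile normalization the 72 h call of MYL9 was also lost (0.30, adjusted p = 0.0509). Tropomyosins are close paralogs, so the estimation step that assigned reads to genes may have divided shared reads.

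TAGLN (transgelin, an actin-binding protein of smooth muscle) measured 5.79 and 4.44 in the control libraries, 2.90 and 2.67 after 24 h, 3.24 and 2.27 after 48 h, and 1.90 and 5.28 after 72 h. All 4 libraries at 24 and 48 h lay below the control, but of the 2 libraries at 72 h 1 was the lowest of all and the other lay between the 2 control libraries. After scaling TAGLN had the largest SE of the 21, and its changes of -0.68 ± 0.30 (adjusted p = 0.288), -0.71 ± 0.30 (adjusted p = 0.115) and -0.51 ± 0.30 (adjusted p = 0.178) at 24, 48 and 72 h did not pass. The fit to the TPM as deposited gave TAGLN the spread of other genes of its level and called it at all 3 times (-0.76 ± 0.17, adjusted p = 0.00312 at 24 h, -0.72 ± 0.17, adjusted p = 0.000772 at 48 h and -0.70 ± 0.17, adjusted p = 0.000218 at 72 h). Without the first 72 h library its 72 h change turned to 0.05 (adjusted p = 0.838), and without the second it was -1.07 (adjusted p = 0.00194). The 48 h change of TAGLN passed with either 72 h library left out (adjusted p = 0.0110 and 0.0114). ACTA2, the smooth-muscle actin of myofibroblasts, stayed between 0.590 and 2.09 scaled TPM, with control libraries of 1.43 and 0.590 and 72 h libraries of 1.53 and 2.09, and did not pass at 72 h (0.51 ± 0.19, adjusted p = 0.0508).

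All 6 tested matrix glycoproteins were called higher at 72 h, where 25.8% of all tested genes were called higher. For 1 of the 6 glycoproteins, POSTN, the call was fixed by the filter, which it reached only at 48 and 72 h. FBN1, of the same group, was below the filter and is given further on. FN1, the adhesive glycoprotein fibronectin, measured 2.45 and 2.24 in the control libraries, 1.91 and 2.70 after 24 h, 2.74 and 2.97 after 48 h, and 5.68 and 6.85 after 72 h. The libraries up to 48 h lay between 1.91 and 2.97 and both 72 h libraries above 5, a change of 1.12 ± 0.14 (adjusted p = 0.000135). TNC, the anti-adhesive glycoprotein tenascin C, measured 1.28 and 1.24 in the control libraries, 2.02 and 1.39 after 24 h, 1.72 and 1.86 after 48 h, and 5.40 and 4.45 after 72 h. Its 72 h libraries were likewise above all others (1.39 ± 0.14, adjusted p = 3.73e-05). THBS1, thrombospondin 1, which can activate latent TGF-beta, measured 1.36 and 0.889 in the control libraries, 0.759 and 0.851 after 24 h, 1.73 and 1.37 after 48 h, and 3.78 and 5.42 after 72 h. Both 72 h libraries lay above all others, a rise of 1.39 ± 0.17 (adjusted p = 0.000115). At 48 h FN1 (0.21 ± 0.14, adjusted p = 0.306), TNC (0.30 ± 0.14, adjusted p = 0.142) and THBS1 (0.27 ± 0.17, adjusted p = 0.272) did not pass.

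TGFBI, a TGF-beta-induced matrix protein that binds integrins, and SPARC (osteonectin), a collagen-binding protein, rose by 48 h. TGFBI measured 9.18 and 9.29 in the control libraries, 8.51 and 9.70 after 24 h, 13.9 and 15.4 after 48 h, and 20.1 and 17.4 after 72 h. The 24 h libraries of TGFBI lay on both sides of the control, and those at 48 and 72 h above it, with changes of 0.61 ± 0.10 (adjusted p = 0.00229) and 0.94 ± 0.10 (adjusted p = 4.06e-05). SPARC measured 1.32 and 1.43 in the control libraries, 0.949 and 1.17 after 24 h, 2.22 and 1.91 after 48 h, and 3.43 and 3.57 after 72 h. It was lower than the control in both 24 h libraries (-0.21 ± 0.11, adjusted p = 0.407) and higher at 48 h (0.37 ± 0.11, adjusted p = 0.0458) and 72 h (0.92 ± 0.11, adjusted p = 0.000142). The 48 h call of SPARC was lost in 12 of its alternatives, among them the TPM as deposited (0.37 ± 0.17, adjusted p = 0.196) and leaving out either library at 0 h (adjusted p = 0.187 and 0.118), 24 h (0.0563 and 0.0576) or 48 h (0.209 and 0.0799). Its 72 h call held in each alternative.

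POSTN (periostin), a secreted matrix protein that binds collagen, went from near 0 to a low level. It measured 0.0755 and 0.150 in the control libraries, 0 and 0.0810 after 24 h, 1.36 and 1.24 after 48 h, and 1.98 and 2.01 after 72 h. Thus all 4 libraries of the first 2 times were at or below 0.15 and all 4 of the last 2 above 1.2. The change was 1.05 ± 0.12 (adjusted p = 0.000507) at 48 h and 1.43 ± 0.12 (adjusted p = 1.27e-05) at 72 h. With a pseudocount of 0.1 in place of 1 these changes of POSTN were 2.74 (adjusted p = 0.00123) and 3.32 (adjusted p = 7.90e-05).

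LUM (lumican), a keratan sulfate proteoglycan that binds collagen fibrils, had the largest change of the 21 on the log2(scaled TPM + 1) scale, while POSTN had the larger ratio of 72 h to control means (17.7, against 4.65 for LUM). It measured 8.83 and 8.42 in the control libraries, 7.49 and 8.64 after 24 h, 22.5 and 23.7 after 48 h, and 43.4 and 36.8 after 72 h. Of the 24 h libraries of LUM 1 lay below the control ones and 1 between them, and the 48 h and the 72 h libraries were each above all earlier ones. LUM rose by 1.33 ± 0.09 (adjusted p = 4.37e-05) at 48 h and 2.09 ± 0.09 (adjusted p = 3.16e-07) at 72 h, to 2.68 and 4.65 times the control mean. The rise between those times was 0.77 ± 0.09 (adjusted p = 0.000319). It was the only one of the 4 proteoglycans above the filter. DCN (decorin), a related proteoglycan, measured 1.00 and 0.140 in the control libraries, 0.0899 and 0.0304 after 24 h, 0.636 and 0.461 after 48 h, and 0.396 and 0.646 after 72 h, with its highest value in a control library. BGN (biglycan) and VCAN (versican) stayed below 0.33 in every library.

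TIMP1, a secreted inhibitor of matrix metalloproteinases, was the second most abundant member in every library. It measured 35.1 and 36.1 in the control libraries, 32.2 and 30.7 after 24 h, 57.9 and 59.1 after 48 h, and 70.1 and 73.8 after 72 h. Both 24 h libraries of TIMP1 lay below the control ones, and after scaling each later group lay above the one before. Its change was -0.17 ± 0.05 (adjusted p = 0.147) at 24 h, 0.70 ± 0.05 (adjusted p = 6.14e-05) at 48 h and 0.99 ± 0.05 (adjusted p = 8.84e-07) at 72 h, where it was 2.02 times the control mean. On the TPM as deposited the 72 h libraries of TIMP1 (72.6 and 59.4) lay on both sides of the 48 h ones (61.0 and 62.8). The change between those times was then 0.08 ± 0.16 (adjusted p = 0.731). TIMP3, an inhibitor that binds to the matrix, measured 1.27 and 1.42 in the control libraries, 1.79 and 2.00 after 24 h, 2.34 and 2.18 after 48 h, and 2.19 and 2.56 after 72 h. Every silenced library lay above both control ones, with changes of 0.47 ± 0.11 (adjusted p = 0.0156) at 48 h and 0.52 ± 0.11 (adjusted p = 0.00368) at 72 h. On the TPM as deposited TIMP3 did not pass at either time (0.48 ± 0.17, adjusted p = 0.0618 and 0.38 ± 0.17, adjusted p = 0.0623). Its 48 h call was lost with either control library left out (adjusted p = 0.0964 and 0.0525) or either 48 h library (0.0826 and 0.0573). PMEPA1, a TGF-beta-induced inhibitor of SMAD signalling, measured 5.13 and 5.0 in the control libraries, 4.97 and 4.42 after 24 h, 4.63 and 6.18 after 48 h, and 4.27 and 4.92 after 72 h. Both its libraries at 24 and 72 h lay below the control and those at 48 h on both sides of it, with no call at any time (-0.12 ± 0.13, adjusted p = 0.468, at 72 h).

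Promoter sequences of 4 members are shown, as examples of different courses: VIM, called higher at 72 h only, as were 9 other members, POSTN, near 0 until 48 h, TIMP1, abundant and rising from 48 h, and S100A4, abundant and lower at 72 h. They run from 250 bases before to 50 after the start site and are taken from RefSeq (GRCh38.p14), at chr10:17227991-17228290, + strand, chr13:37598719-37599018, - strand, chrX:47582186-47582485, + strand and chr1:153545757-153546056, - strand, printed 5′ to 3′ on the gene's strand. Capitals mark the AP-1 motif in POSTN and the E-box in S100A4, and VIM and TIMP1 have none of the motifs searched.

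VIM: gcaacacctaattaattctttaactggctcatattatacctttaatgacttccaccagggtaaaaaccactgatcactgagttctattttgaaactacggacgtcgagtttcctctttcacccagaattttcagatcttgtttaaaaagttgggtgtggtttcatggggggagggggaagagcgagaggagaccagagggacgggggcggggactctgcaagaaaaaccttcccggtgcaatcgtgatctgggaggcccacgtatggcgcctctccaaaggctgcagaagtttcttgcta

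POSTN: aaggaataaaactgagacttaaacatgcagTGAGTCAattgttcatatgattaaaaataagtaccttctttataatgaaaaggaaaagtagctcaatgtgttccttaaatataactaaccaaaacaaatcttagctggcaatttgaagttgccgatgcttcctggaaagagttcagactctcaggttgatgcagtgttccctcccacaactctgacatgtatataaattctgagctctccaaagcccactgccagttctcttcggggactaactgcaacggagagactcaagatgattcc

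TIMP1: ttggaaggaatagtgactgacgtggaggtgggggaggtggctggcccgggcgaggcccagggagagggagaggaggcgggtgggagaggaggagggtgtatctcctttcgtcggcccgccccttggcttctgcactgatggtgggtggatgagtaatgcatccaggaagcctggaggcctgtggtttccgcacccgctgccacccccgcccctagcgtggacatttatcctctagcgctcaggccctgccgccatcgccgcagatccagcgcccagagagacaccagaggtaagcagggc

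S100A4: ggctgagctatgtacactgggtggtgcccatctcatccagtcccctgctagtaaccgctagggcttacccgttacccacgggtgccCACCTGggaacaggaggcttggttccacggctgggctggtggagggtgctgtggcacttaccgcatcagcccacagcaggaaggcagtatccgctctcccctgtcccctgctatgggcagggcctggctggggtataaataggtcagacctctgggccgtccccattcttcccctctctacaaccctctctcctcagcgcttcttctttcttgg

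The motifs were searched on both strands: CTTTGA for TCF/LEF factors, CACCTG for the E-box bound by SNAIL and ZEB factors, TGANTCA for AP-1, and the CArG box of serum response factor. RefSeq start windows were matched for 23 of the 31 members, 16 of them tested, with 30 windows in all for those 16. The TCF/LEF letters were in 0 of the 30, where 12.9% of all 35114 windows held them. The E-box letters were in 4 windows, of S100A4, ZEB1 (in 2 of them) and PMEPA1 (20.6% of all windows), the AP-1 letters in 2, of POSTN and CALD1 (7.71%), and the CArG box in 0 (1.29%). A match or its absence describes these windows only.

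The other 10 members were below the filter, and 8 of them were under 1 TPM as deposited in every library. The exceptions were DCN and LOXL2, a lysyl oxidase that crosslinks collagen, each above 1 TPM as deposited in a single control library (LOXL2: 1.41 and 0.496 in the control libraries, 0.699 and 0.810 after 24 h, 0.560 and 0.677 after 48 h, and 0.811 and 1.04 after 72 h). CDH2, the mesenchymal N-cadherin, measured 0.00944 and 0.0468 in the control libraries, 0.00999 and 0.0203 after 24 h, 0.142 and 0.169 after 48 h, and 0.473 and 0.808 after 72 h. Each library at 48 h was above all before it and each at 72 h above all at 48 h. LOX, a lysyl oxidase, measured 0.642 and 0.543 in the control libraries, 0.699 and 0.496 after 24 h, 0.541 and 0.508 after 48 h, and 0.222 and 0.149 after 72 h, with both 72 h libraries below all others. FBN1, the microfibril protein fibrillin 1, measured 0.548 and 0.533 in the control libraries, 0.539 and 0.567 after 24 h, 0.370 and 0.404 after 48 h, and 0.328 and 0.410 after 72 h, with the last 4 libraries below the first 4. With no filter, 18656 genes were tested and 31.8% were called at 72 h, among them CDH2 higher (0.67 ± 0.10, adjusted p = 0.00639), and LOX (-0.43 ± 0.07, adjusted p = 0.0110) and FBN1 (-0.17 ± 0.03, adjusted p = 0.0192) lower. At levels under 1 TPM and with depth unknown, these 3 are given as values only.

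**Figure D3:**
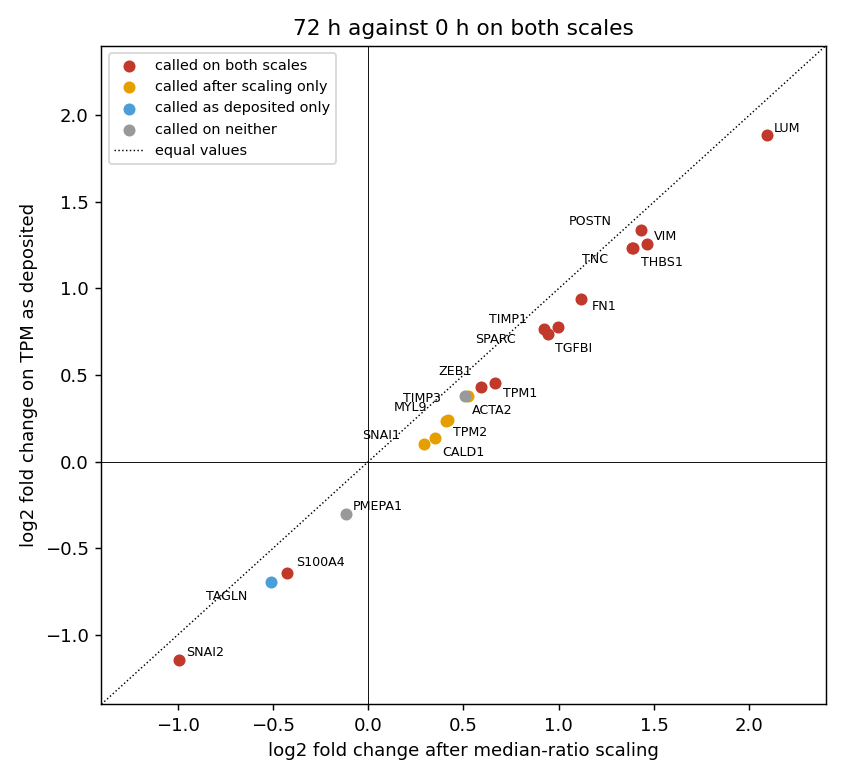
Log2 fold change at 72 h against 0 h of each tested member after median-ratio scaling (horizontal) and on the TPM as deposited (vertical), with a dotted line at equal values. Every member lies below the line, 13 were called on both scales, SNAI1, CALD1, TPM2, MYL9 and TIMP3 after scaling only, and TAGLN as deposited only.

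The strand setting of the counting was not given in the sources used here. In the GENCODE 29 annotation exons of several tested members overlap a gene on the opposite strand, so reads of the 2 genes may not be separable. This concerns VIM (VIM-AS1), ZEB1 (ZEB1-AS1), TPM1 (TPM1-AS), THBS1 (FSIP1), TNC (DEC1), SPARC (CLMAT3), TAGLN (PCSK7), ACTA2 (FAS and ACTA2-AS1) and PMEPA1 (NKILA). No such overlap was found for the other 12 tested members.

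Related genes were examined in 4 further lists. Over all genes tested at 72 h 3064 were higher and 3115 lower, and on the TPM as deposited 1253 higher and 3715 lower. Among other matrix and stromal genes 10 of 26 passed the filter, of which 5 were higher and 3 lower at 72 h. The median was 0.23, against 0.0031 for all genes, and 80% were called against 52.0% of all genes. Without scaling 3 were higher and 3 lower. The genes called higher include ECM1 and MFAP5, which reached the filter in no control library, so the 80% was partly set by the filter. ECM1, a secreted matrix glycoprotein, measured 0.906 and 0.674 in the control libraries, 1.09 and 1.02 after 24 h, 3.44 and 2.39 after 48 h, and 9.36 and 10.6 after 72 h, and rose by 2.62 ± 0.14 (adjusted p = 9.67e-07). It reached the filter in no control library. LOXL1, a lysyl oxidase of elastic fibres, measured 24.1 and 21.5 in the control libraries, 23.7 and 25.5 after 24 h, 22.7 and 23.9 after 48 h, and 8.01 and 8.33 after 72 h. It had a change of -1.38 ± 0.08 (adjusted p = 9.91e-07). MFAP5, a microfibril protein, was 0.113 and 0.253 at 0 h and 3.42 and 3.80 at 72 h (1.96 ± 0.16, adjusted p = 1.23e-05). MFAP5 reached the filter only in its 72 h libraries, so that call too was fixed by the filter.

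In the TGF-beta list 22 of 24 genes passed the filter, and 13 were higher and 1 lower at 72 h (median 0.29), or 63.6% called against 52.0% of all genes. Without scaling 3 were higher and 2 lower. TGFB2, a TGF-beta ligand, measured 0.661 and 0.580 in the control libraries, 0.859 and 0.658 after 24 h, 1.96 and 2.14 after 48 h, and 5.60 and 5.53 after 72 h. TGFB2 reached the filter only in its 48 and 72 h libraries, so its change of 2.02 ± 0.11 (adjusted p = 9.91e-07) is a description and its call was fixed by the filter. INHBA, the activin A subunit, was 1.02 and 0.861 at 0 h and 3.31 and 2.65 at 72 h (1.03 ± 0.12, adjusted p = 0.000114). LTBP4, which stores latent TGF-beta in the matrix, fell from 48.2 and 48.8 to 25.9 and 26.1 (-0.88 ± 0.05, adjusted p = 2.21e-06). TGFB1 did not pass at 72 h (10.4 and 9.85 at 0 h, 6.57 and 9.24 at 72 h).

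Of 24 listed genes of serum response factor and the actin contractile apparatus, 21 passed the filter, with 9 higher and 3 lower at 72 h (median 0.09). That is 57.1% called, near the 52.0% of all genes, and on the TPM as deposited 0 were higher and 2 lower. TPM4, a non-muscle tropomyosin, changed by 0.55 ± 0.04 (adjusted p = 1.01e-05) and MYL6, a myosin light chain, by 0.53 ± 0.05 (adjusted p = 1.99e-05), and neither passed on the TPM as deposited (adjusted p = 0.0939 and 0.128). FHL2, a LIM-domain cofactor, fell by 0.67 ± 0.06 (adjusted p = 2.56e-05). At 24 h this list had 3 genes lower and 0 higher (ACTN4, FLNA and MYH9). Of all tested genes 0.437% were called lower and 0.647% higher at that time. On the TPM as deposited the list had 0 and 0.

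The epithelial list went both ways. Of its 16 genes 13 passed the filter, and 4 were higher and 5 lower at 72 h (median -0.15). Thus 69.2% were called, against 52.0% of all genes, and on the TPM as deposited 0 were higher and 6 lower. After scaling CDH1, EPCAM (0.40), KLF5 (0.36) and ST14 (0.30) were higher. Lower were CLDN7, ESRP1, SPINT1, OVOL2 (-0.46) and ELF3 (-0.38). CLDN7, a tight-junction claudin, fell from 134 and 127 to 71.9 and 74.9 (-0.82 ± 0.06, adjusted p = 5.24e-06). ESRP1, an epithelial splicing regulator, fell from 51.7 and 52.7 to 35.4 and 35.6 (-0.54 ± 0.05, adjusted p = 3.91e-05), and SPINT1, a protease inhibitor of epithelial cells, from 40.7 and 37.8 to 25.3 and 26.6 (-0.58 ± 0.06, adjusted p = 4.76e-05). CDH1, the epithelial cadherin, measured 11.6 and 11.8 in the control libraries, 14.2 and 14.9 after 24 h, 13.4 and 16.2 after 48 h, and 15.3 and 19.5 after 72 h, with both 72 h libraries above the control ones (log2 change 0.53 ± 0.12, adjusted p = 0.00410).

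**Figure D4:**
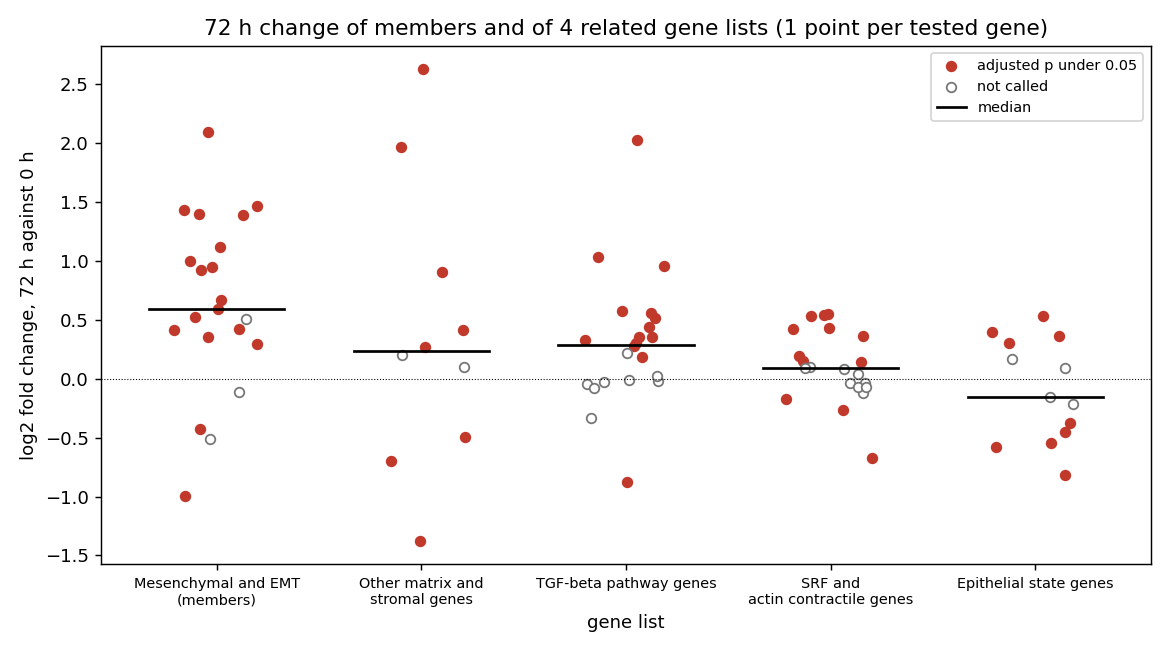
Log2 fold change at 72 h against 0 h (vertical axis) of each tested gene, 1 point per gene, for the members and 4 related lists (horizontal axis), with filled points for an adjusted p under 0.05 and a bar at the median. The medians are 0.59 for the members, 0.23 for other matrix genes, 0.29 for TGF-beta genes, 0.09 for contractile genes and -0.15 for epithelial genes.

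Markers of the labelled epithelial line were present. All 7 epithelial markers were expressed, with a summed scaled TPM of 3015 to 4073 per library. At 72 h 5 were higher (EPCAM, CDH1, KRT8, KRT18 and KRT19) and 1 lower (CDX2), against 1 and 1 on the TPM as deposited. Of all tested genes 25.8% were called higher and 26.2% lower at that time after scaling. Of 9 fibroblast markers, 2 of which are members here, the sum was 12.6 and 10.2 at 0 h and 50.7 and 45.5 at 72 h, most of it LUM. The collagen gene COL3A1 measured 0.00944 and 0.0187 in the control libraries, 0.0300 and 0.0506 after 24 h, 0.655 and 0.620 after 48 h, and 2.54 and 2.34 after 72 h, and it reached the filter only at 72 h. COL1A1 measured 1.83 and 1.13 in the control libraries, 1.14 and 1.79 after 24 h, 1.94 and 1.26 after 48 h, and 2.58 and 3.75 after 72 h, with a 72 h change of 0.75 ± 0.21 (adjusted p = 0.0138). The 3 tested fibroblast markers (LUM, COL3A1 and COL1A1) were called higher at 72 h, as were 25.8% of all tested genes. Of the 3 markers, LUM is itself a member here, and the call of COL3A1 was fixed by the filter. COL1A2 was untested and measured 0.151 and 0.150 in the control libraries, 0.220 and 0.223 after 24 h, 0.636 and 0.996 after 48 h, and 0.878 and 0.982 after 72 h. PDGFRA was at or below 0.123 in every library, THY1 below 0.2, FAP below 0.53, PDGFRB below 0.59, and DCN is given above. The 4 endothelial markers were below 1 in every library, with sums of 0.0850 to 0.579. Of 5 leukocyte markers only CD68, a lysosomal protein gene, reached 1, with 3.35 and 2.01 at 0 h and 21 and 23.9 at 72 h, and PTPRC stayed below 0.8. Whether rare cells of another type contributed to the matrix genes was not tested.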

How the data were processed

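The authors deposited 1 table of TPM, and the submitters' processing notes name RSEM, STAR, Trimmomatic, FastQC, Picard and SAMtools with build hg19. No version, annotation or strand setting was given in the sources used here. Samples were grouped by the titles in the labels, 2 libraries per group.

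The values of each library were then divided by a factor, the median ratio of its genes to their mean log level (11876 genes), and log2(TPM + 1) was fitted for the 11894 genes that reached a TPM of 1 in 2 or more libraries with limma 3.58.1 in R 4.3.3, on all 8 libraries, with a mean-variance trend, two-sided and at an adjusted p under 0.05. Scaling was made the main choice because the fit to the TPM as deposited gave every gene the trend's spread alone (median SE 0.162, against 0.0912 with 5.41 prior degrees of freedom after scaling). The 31 members, the lists and the tests were chosen with earlier results of these data known. Members above the filter were named with values, with those called given in every library; of the other lists, the 3 genes with the smallest p at 72 h, and CDH1, TGFB1, COL3A1, COL1A1, COL1A2 and the genes named in counts were added after their values were seen. The alternatives were other scalings, pseudocounts of 0.1 and 5, other filters, variance models, a fit of only the groups compared, a block for replicate number, a threshold of 0.01 and leaving out each library.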

Additional observations from a re-analysis of the deposited data

Results flagged for a closer look

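For 6 members the change against 0 h had opposite signs at 2 successive times. Both libraries of each time lay beyond both control libraries, and a limma test of the difference between the times passed. The rule was applied to the 21 tested members only. How many of all genes would meet it was not counted, so the 6 are a description. Of all genes 14.0% were called between 24 and 48 h and 39.9% between 48 and 72 h. Below the control at 24 h and above it at 48 h were TIMP1, with a difference of 0.87 (adjusted p = 3.43e-05), SPARC, with 0.57 (adjusted p = 0.0116), and VIM, with 0.35 (adjusted p = 0.0269). Below the control at 48 h and above it at 72 h were MYL9, with 0.76 (adjusted p = 0.00101), and SNAI1, with 0.38 (adjusted p = 0.0156). S100A4 was above the control at 48 h and below it at 72 h, with a difference of -0.57 (adjusted p = 8.87e-05). The changes against 0 h at the earlier of the 2 times did not pass: at 24 h TIMP1 (-0.17), SPARC (-0.21) and VIM (-0.22), and at 48 h MYL9 (-0.34), SNAI1 (-0.09) and S100A4 (0.15). The difference for VIM was lost without the first 24 h or second 48 h library (adjusted p = 0.169 and 0.169), that of SPARC without the first 24 h or first 48 h library (0.0914 and 0.0784) and that of SNAI1 without the first 48 h or second 72 h library (0.0897 and 0.0976). Without scaling the differences for SNAI1 (0.20, adjusted p = 0.376) and VIM (0.43, adjusted p = 0.111) did not pass. That of VIM was also lost with no filter (adjusted p = 0.0667) and with only the groups compared in the fit (0.0501).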

How the results depend on the processing

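Across 1140 values of single genes under the alternatives, 1056 kept their direction and their side of the threshold, 72 lost the call, 11 gained one and 1 reversed. They cover 65 changes, 50 of them of members called with or without scaling. The rest are those of TCF7L2 against 0 h and of the 3 genes with the smallest p in each further list. Most were thus chosen for being called, so this share does not extend to other genes. On the TPM as deposited the number of members called was 1 at 24 h (TAGLN) in place of 0, and 8 between 48 and 72 h in place of 16. With a minimum TPM of 5, which left 10 members to test, it was 3 at 48 h, 9 at 72 h and 9 between 48 and 72 h, because fewer members were tested. With quantile normalization the 48 h calls were 5 higher and 1 lower (MYL9, -0.37, adjusted p = 0.0470), in place of 6 and 0. The other counts of members called stayed within 1.5 times those reported. The value that reversed was that of TAGLN at 72 h, which ran from -1.07 to 0.052 when 1 library was left out. With a pseudocount of 5 the 72 h changes of low genes shrank, as in FN1 (0.62), TNC (0.66) and THBS1 (0.64), and 19 members were called. Same-numbered libraries of different times showed little shared deviation (correlations across genes from -0.09 to 0.11). Such correlations cannot exclude a pairing that moved few genes. With the replicate number as a block 17 members were called at 72 h, without SNAI1 (adjusted p = 0.0502), and 5 at 48 h, without SPARC (0.0602), and the other 3 counts were as reported. Depth is unknown, so the smallest detectable level cannot be stated.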
